A study of Homo sapiens with 38 samples.

Results

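Imprinted genes are expressed mainly from 1 parental copy, and DNA methylation laid down in the egg or the sperm sets which copy that is. Most of them sit in clusters that share a control region, and many act on growth of the embryo and placenta or on brain development. Human pluripotent stem cells in the naive state resemble cells of the embryo before implantation and carry little DNA methylation, and such cultures are known to lose methylation at imprinted control regions. The total RNA level of 10 imprinted genes was followed here while naive cells left that state. The genes were taken by symbol from the count table, where all 10 were found among 57133 genes, and all 10 were among the 16674 genes with enough counts to be tested. They comprised the maternally expressed long non-coding RNAs H19 and MEG3, the paternally expressed genes IGF2, DLK1, PEG3, PEG10, MEST, SNRPN and NDN, and GRB10, whose expressed copy depends on transcript and tissue. Reads were not split by allele, so that each value is a sum over both copies and does not show which copy was read.

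The cells were Shef6, an established human embryonic stem cell line, and RNA was sequenced from the polyadenylated ends of transcripts in 38 libraries that formed 19 groups of 2. All cells came from a naive culture adapted to serum-coated dishes. Naive cells (day 0) were grown in PXGL, which blocks MEK, tankyrase and PKC and contains LIF, on that coating or on Geltrex (an extract of basement membrane). Capacitation, by which naive cells become competent to form lineages, took place on Geltrex in N2B27 without added factors, in the complete medium E8 or in mTeSR, another complete medium. XAV was N2B27 plus XAV939, which blocks tankyrase, and FAX was N2B27 to which FGF2, Activin A and XAV939 had been added. In Ex1, the larger experiment, both coatings were sampled for naive cells, 5 days (2, 3, 4, 6 and 8) for N2B27 and for E8, and 3 days (4, 6 and 8) for mTeSR. Ex2 sampled day 4 of N2B27, of XAV and of FAX beside naive cells on Geltrex. The library names of the Ex2 naive samples carry a mark of day 4 while their titles give day 0, and they were used as naive cells. All naive library names read PXGLY where the titles read PXGL, and those on serum also read GelFBS. The labels explain neither the Y nor that coating name. By the paper's methods a ROCK inhibitor was added to naive medium after passaging and to N2B27 at seeding. Only 1 line was sequenced and the 2 replicates of a group are libraries of 1 experiment, so that p-values measure the spread between such libraries, which may be technical. The comparisons with naive cells join 6 naive libraries of both experiments and coatings (and, at day 4, N2B27 of both experiments). The spread between experiments and coatings enters their fit only through these libraries, and no term for experiment or coating was fitted. Each other medium and day came from 1 experiment, so that on that side the p-values do not measure the spread between experiments.

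Total counts ran from 3038046 to 5612354 per library, with a median of 4427277, and 21018 to 25447 genes were detected. Levels are given as CPM, for which each library's counts were brought to the same total after TMM scaling. Since reads come from transcript ends only, a level was compared for the same gene between libraries and not between genes. Marker genes followed the labelled states: 9 naive markers summed to 1485 to 2009 CPM in the 6 naive libraries and 7 primed markers to 19.2 to 24.3 CPM, and at day 8 the naive sum was 700.3 to 755 CPM and the primed sum 749.7 to 839 CPM in N2B27.

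Methylation of imprinted regions falls on CG pairs, and windows around transcript starts are shown for the genes on which the comparisons between media and between genes turned. H19 and MEST parted in opposite directions between E8 and N2B27. NDN and SNRPN lie in the same cluster, and their levels had the highest correlation over the groups among the 45 pairs of the 10 genes. The RefSeq table (GRCh38.p14) held windows for 6 of the 10 genes. Each window runs from 250 bases before to 50 bases after a start, printed 5′ to 3′ on the strand of the gene with every CG pair in capitals, and the window with most CG pairs was taken where a gene had several.
H19 (chr11:2001217-2001516, minus strand): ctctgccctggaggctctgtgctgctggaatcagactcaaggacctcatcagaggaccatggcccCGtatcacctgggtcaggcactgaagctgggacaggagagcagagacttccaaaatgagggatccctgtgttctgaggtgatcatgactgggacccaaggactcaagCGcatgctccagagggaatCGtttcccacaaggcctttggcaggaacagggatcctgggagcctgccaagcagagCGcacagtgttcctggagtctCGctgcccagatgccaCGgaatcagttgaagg
MEST (chr7:130491835-130492134, plus strand): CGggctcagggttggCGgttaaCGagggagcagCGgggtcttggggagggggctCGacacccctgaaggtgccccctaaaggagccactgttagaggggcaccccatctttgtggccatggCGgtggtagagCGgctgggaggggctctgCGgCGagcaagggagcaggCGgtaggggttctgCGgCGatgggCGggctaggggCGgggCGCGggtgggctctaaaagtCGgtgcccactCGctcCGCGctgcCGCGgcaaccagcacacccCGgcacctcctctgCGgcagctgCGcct
NDN (chr15:23687256-23687555, minus strand): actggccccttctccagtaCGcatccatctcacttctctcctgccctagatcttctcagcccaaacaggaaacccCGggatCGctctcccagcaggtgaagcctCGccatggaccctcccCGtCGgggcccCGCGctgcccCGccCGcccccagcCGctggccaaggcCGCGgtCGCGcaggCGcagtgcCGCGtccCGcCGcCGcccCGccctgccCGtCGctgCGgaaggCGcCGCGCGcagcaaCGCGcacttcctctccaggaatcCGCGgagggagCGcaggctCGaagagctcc
SNRPN (chr15:24954737-24955036, plus strand): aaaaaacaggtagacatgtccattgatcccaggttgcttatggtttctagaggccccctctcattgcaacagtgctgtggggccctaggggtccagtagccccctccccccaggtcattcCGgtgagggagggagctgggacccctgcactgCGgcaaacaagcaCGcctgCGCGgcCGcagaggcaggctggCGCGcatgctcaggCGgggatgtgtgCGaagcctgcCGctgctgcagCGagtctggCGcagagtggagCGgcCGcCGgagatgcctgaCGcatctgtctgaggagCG
The H19 window held 6 CG pairs, and 33.7% of the 35116 windows in the table held fewer, where the median window held 14. The MEST window held 25 pairs (68.0% held fewer), the NDN window 35 (85.9%) and the SNRPN window 18 (55.5%). Methylation of these windows was not measured here.

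Relative to naive cells, 7 of the 10 imprinted genes were called higher in at least 1 medium and day and none was called lower, where 32.8% of all genes tested were called higher at least once and 25.7% lower. A gene was called when edgeR's quasi-likelihood F-test gave a Benjamini-Hochberg adjusted p under 0.05 over all 16674 genes and the log2 fold change was above 1 or below -1. Over the 15 comparisons of a medium and day with the 6 naive libraries, 63 of 150 pairs of gene and comparison were called, all higher, beside 13.7% of the pairs over all genes called higher and 7.18% lower. PEG10 was called in 15 comparisons, PEG3 in 14, IGF2 in 13, DLK1 in 12, MEST in 6, NDN in 2 and GRB10 in 1, while H19, MEG3 and SNRPN were called in none. Without the fold threshold 121 pairs (of 150) had an adjusted p under 0.05, again all higher, where 21.9% of all pairs over all genes had such a p and were higher and 18.7% had one and were lower. The 15 comparisons share the same naive libraries. The 10 genes were chosen with earlier results of these data known, so that their counts beside those of all genes are a description only.

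In N2B27, 3, 3, 4, 3 and 3 of the 10 genes were called higher at days 2, 3, 4, 6 and 8, beside 9.85%, 9.78%, 12.5%, 16.5% and 16.9% of all genes tested. In E8 the counts were 3, 5, 5, 4 and 6, beside 13.9%, 11.8%, 13.6%, 15.8% and 18.2%. In mTeSR 5, 5 and 6 genes were called higher at days 4, 6 and 8, beside 12.8%, 15.7% and 16.9%. XAV and FAX each had 4 at day 4, beside 10.5% and 10.3%. The median log2 fold change of the 10 genes at day 8 was 0.81 in N2B27, 1.15 in E8 and 1.08 in mTeSR, and that of all genes tested was -0.03, 0.00 and -0.02. Markers of other cell types were also higher at day 8: 9 endoderm markers summed to 1.02 to 4.19 CPM in naive cells (APOA1 and TTR at 0) and to 172 to 194 CPM in N2B27 (TTR at 0), and 10 fibroblast markers to 4.25 to 8.85 CPM (POSTN and FAP at 0) and 173 to 181 CPM (DCN and FAP at 0). Their part in the levels of the imprinted genes was not tested, and in bulk RNA fewer cells of a type and less RNA per cell cannot be told apart.

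**Figure D1:**
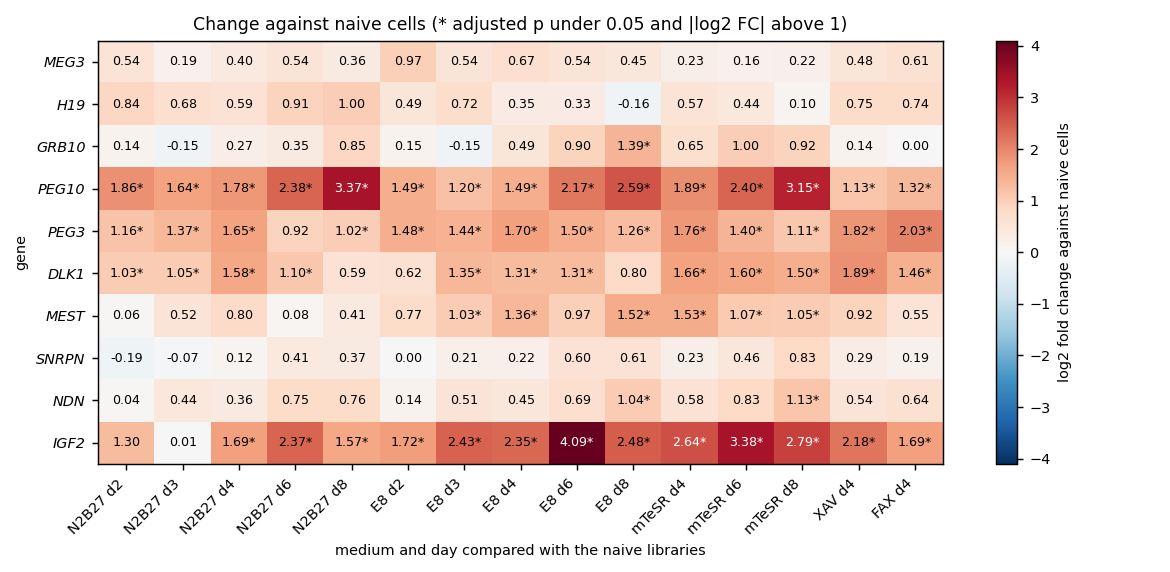
Log2 fold change of each imprinted gene (rows) in each medium and day (columns) against the 6 naive libraries, coloured from blue (lower) to red (higher), with an asterisk on called pairs. PEG10 was called in all 15 columns, from 1.13 in XAV to 3.37 in N2B27 at day 8, and H19, MEG3 and SNRPN in none.

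PEG10 (chr7:94656325-94669695, plus strand), a paternally expressed gene derived from a retrotransposon and needed for the placenta, was higher in every medium and day. Its 6 naive libraries held 20.5 to 36.6 CPM, with a median of 25.8, and all 32 libraries of differentiating cells were above them, from 47.9 to 291 CPM. In N2B27 of Ex1 the pairs of libraries read 84.5 and 109 CPM at day 2, 92.7 and 73.04 at day 3, 87.9 and 75.7 at day 4, 137 and 139 at day 6 and 291 and 259 at day 8. E8 held 151 and 169.9 CPM at day 8, and mTeSR 233 and 238 CPM. The libraries of the 3 media, 2 in each, did not overlap at that day. The share of all genes without overlap was not counted, here or for the genes below. The change against naive cells at day 8 was 3.37 ± 0.14 on the log2 scale in N2B27 (10.4-fold, adjusted p = 6.3e-20 by edgeR), 2.59 ± 0.15 in E8 (6.03-fold) and 3.15 ± 0.14 in mTeSR (8.88-fold), where ± gives the SE. PEG10 shares 219 exonic bases with SGCE on the opposite strand, and since the strand setting of the counting is not given in the sources used here, reads of both genes may not be told apart there.

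PEG3 (chr19:56810077-56840728, minus strand), which encodes a zinc finger protein from the paternal copy, held 52.9 to 88.7 CPM in naive cells and 122 to 292 CPM in the 32 other libraries, with no overlap. At day 4 the pairs read 184 and 178 CPM in N2B27 of Ex1, 256 and 249.5 in N2B27 of Ex2, 226 and 221 in E8, 257 and 211 in mTeSR, 233 and 252 in XAV and 292 and 270.4 in FAX. At day 8 they read 126 and 154 CPM in N2B27, 170.4 and 160.01 in E8 and 147 and 150.3 in mTeSR, lower than at day 4 in each medium. The largest change was that of FAX (2.03 ± 0.13, adjusted p = 1.4e-14, edgeR), sampled in Ex2, where N2B27 at day 4 was also higher than in Ex1, and the only comparison without a call was N2B27 at day 6 (0.92 ± 0.14). The call of N2B27 at day 8 (1.02 ± 0.14) lay at the fold threshold and was lost without its replicate 2 (0.87) and without any of 3 naive libraries on Geltrex (replicate 1 of Ex1, 0.997; replicates 1 and 2 of Ex2, 0.97 and 0.96). Against the naive libraries of Ex1 only it was 0.93, and against those on serum only the day 8 calls were lost in N2B27 (0.78) and mTeSR (0.87). PEG3 shares 1264 exonic bases with ZIM2 on the same strand, and counts may be split between them.

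DLK1 (chr14:100725705-100738224, plus strand), a paternally expressed membrane protein related to NOTCH ligands, held 10.4 to 15.9 CPM in naive cells and 16.9 to 53.8 CPM in differentiating cells, again with no overlap. The highest pair was that of XAV at day 4, 47.3 and 53.8 CPM. In mTeSR the level was 45.5 and 41.1 CPM at day 4 and 38.1 and 39.04 CPM at day 8. N2B27 of Ex1 went from 38.3 and 37.7 CPM at day 4 to 18.7 and 22.3 CPM at day 8, and E8 from 28.5 and 39.3 to 24.3 and 23.2 CPM. Against naive cells, day 8 was called in mTeSR (2.82-fold higher, adjusted p = 3.0e-08, edgeR) and was under the fold threshold in N2B27 (0.59 ± 0.19) and E8 (0.80 ± 0.19). The libraries of N2B27 at day 3 stood far apart, at 16.9 and 39.1 CPM, and without the higher of them E8 was above N2B27 at that day by 1.04 (adjusted p = 0.0015, edgeR), against 0.29 ± 0.21 with it.

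MEST (chr7:130486171-130506465, plus strand), a paternally expressed gene for a protein with a hydrolase fold, held 49.7 to 75.7 CPM in naive cells. In N2B27 of Ex1 the pairs read 67.2 and 61.2 CPM at day 2, 98.1 and 80.02 at day 3, 92.6 and 108 at day 4, 73.1 and 57.2 at day 6 and 74.9 and 89.5 at day 8. In E8 they read 109 and 101 CPM at day 2, 126 and 126 at day 3, 160.3 and 156 at day 4, 114 and 129 at day 6 and 196 and 157 at day 8. Both E8 libraries were above both N2B27 libraries at each of the 5 days. The calls against naive cells came from E8 at days 3, 4 and 8 and from mTeSR at days 4, 6 and 8, with the largest change in mTeSR at day 4 (1.53 ± 0.13, adjusted p = 5.0e-12, edgeR). In N2B27 the largest change was 0.80 ± 0.11 at day 4. The day 8 call in mTeSR (1.05 ± 0.13) was lost without mTeSR replicate 1 (0.996) and without either Ex2 naive library (0.97 and 0.99). It was 0.93 against the naive libraries of Ex1 and 0.83 against those on serum. MEST shares 484 exonic bases with MESTIT1 and 228 with COPG2, both on the opposite strand.

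IGF2 (chr11:2129112-2158391, minus strand), the paternally expressed growth factor, was counted rarely, with 1 to 5 counts per naive library (0.180 to 1.36 CPM) and at most 44 counts in any other. Its highest levels were 10.6 and 9.07 CPM (44 and 40 counts) in E8 at day 6, against 4.36 and 1.61 CPM (21 and 8 counts) in N2B27. At day 8 E8 held 3.55 and 2.82 CPM. The fitted change of E8 at day 6 against naive cells was 4.09 on the log2 scale, with a 95% interval of 3.20 to 4.99 (adjusted p = 4.0e-09, edgeR). In N2B27 at day 8 the call (1.57 ± 0.61, adjusted p = 0.034) was lost without either N2B27 library (adjusted p = 0.20 and 0.075) and without replicate 2 of each naive group, serum (0.069), Ex1 Geltrex (0.076) or Ex2 Geltrex (0.055). IGF2 shares 333 exonic bases with IGF2-AS on the opposite strand.

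H19 (chr11:1995166-2004552, minus strand), the maternally expressed RNA that shares a control region with IGF2, held 61.2 to 75.9 CPM in naive cells. In N2B27 of Ex1 it read 96.3 and 157 CPM at day 2, 114 and 113 at day 3, 103 and 102 at day 4, 120.2 and 146 at day 6 and 157 and 126 at day 8. In E8 it read 98.4 and 100.1 CPM at day 2, 139 and 93.6 at day 3, 88.7 and 91.97 at day 4, 86.4 and 91.4 at day 6 and 60.3 and 66.9 at day 8. All 10 N2B27 libraries of Ex1 were above the naive range, whereas the E8 libraries of day 8 were within it or just under it. The change against naive cells at day 8 was 1.00 ± 0.13 in N2B27 (adjusted p = 1.4e-07, edgeR), just under the fold threshold before rounding and past it under 9 of 17 other settings, and -0.16 ± 0.15 in E8 (adjusted p = 0.39).

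MEG3 (chr14:100779410-100861031, plus strand), the maternally expressed RNA of the DLK1 cluster, was not called against naive cells in any comparison. Naive libraries spread from 343 to 545 CPM. Those on serum held 545 and 496 CPM, and those on Geltrex 343 and 373 in Ex1 and 389.6 and 399 in Ex2. The 32 libraries of differentiating cells, all on Geltrex, held 443 CPM or more. The highest values were those of E8 at day 2, 879 and 783 CPM, with a change of 0.97 ± 0.13 (adjusted p = 1.4e-07, edgeR). That change is against naive libraries of both coatings, and E8 at day 2 was not compared with those on Geltrex alone. At day 8 the libraries held 523 and 569.7 CPM in N2B27, 538 and 622 in E8 and 463 and 526 in mTeSR. Each medium had a library within the naive range, though above the naive libraries on Geltrex.

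SNRPN (chr15:24823637-24978723, plus strand), which encodes a protein of the splicing machinery, and NDN (chr15:23685400-23687305, minus strand), which encodes the MAGE family protein necdin, are paternally expressed genes of the cluster linked to Prader-Willi syndrome. SNRPN held 307 to 407 CPM in naive cells and NDN 54.3 to 71.4 CPM. At day 8 SNRPN read 477 and 437 CPM in N2B27, 419 and 660.5 in E8 and 636 and 624 in mTeSR, all above the naive range, with changes of at most 0.83 ± 0.11 (mTeSR, adjusted p = 2.2e-07, edgeR). Against the naive libraries on serum only, that change was 1.03 and was called. NDN read 111 and 99.7 CPM in N2B27, 138 and 117 in E8 and 139 and 133 in mTeSR. It was called in E8 (1.04 ± 0.11) and mTeSR (1.13 ± 0.11) and stayed under the fold threshold in N2B27 (0.76 ± 0.11). The E8 call was lost without E8 replicate 1 (0.90) and without Ex2 naive replicate 1 (0.996). Over the 19 group means of log2 CPM, SNRPN and NDN had the highest correlation of the 45 pairs of imprinted genes (Pearson's r = 0.89), the median over pairs was 0.50 and the lowest was -0.22, for H19 with GRB10. These are descriptions over points that share the contrast of naive and differentiating cells. SNRPN shares 813 exonic bases with SNURF and 141 with SNHG14 on the same strand, so that its counts may include or lose reads of both.

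GRB10 (chr7:50590063-50793462, minus strand) encodes an adaptor that binds the insulin receptor and restrains its signal. It held 32.8 to 43.3 CPM in naive cells, and at day 8 68.1 and 72.9 CPM in N2B27, 90.5 and 114 in E8 and 76.00 and 71.7 in mTeSR, all above that range. E8 at day 8 was its only call (1.39 ± 0.15, adjusted p = 2.2e-09, edgeR). The lowest library was replicate 1 of N2B27 at day 3, at 23.1 CPM, where replicate 2 held 46.7 CPM.

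**Figure D2:**
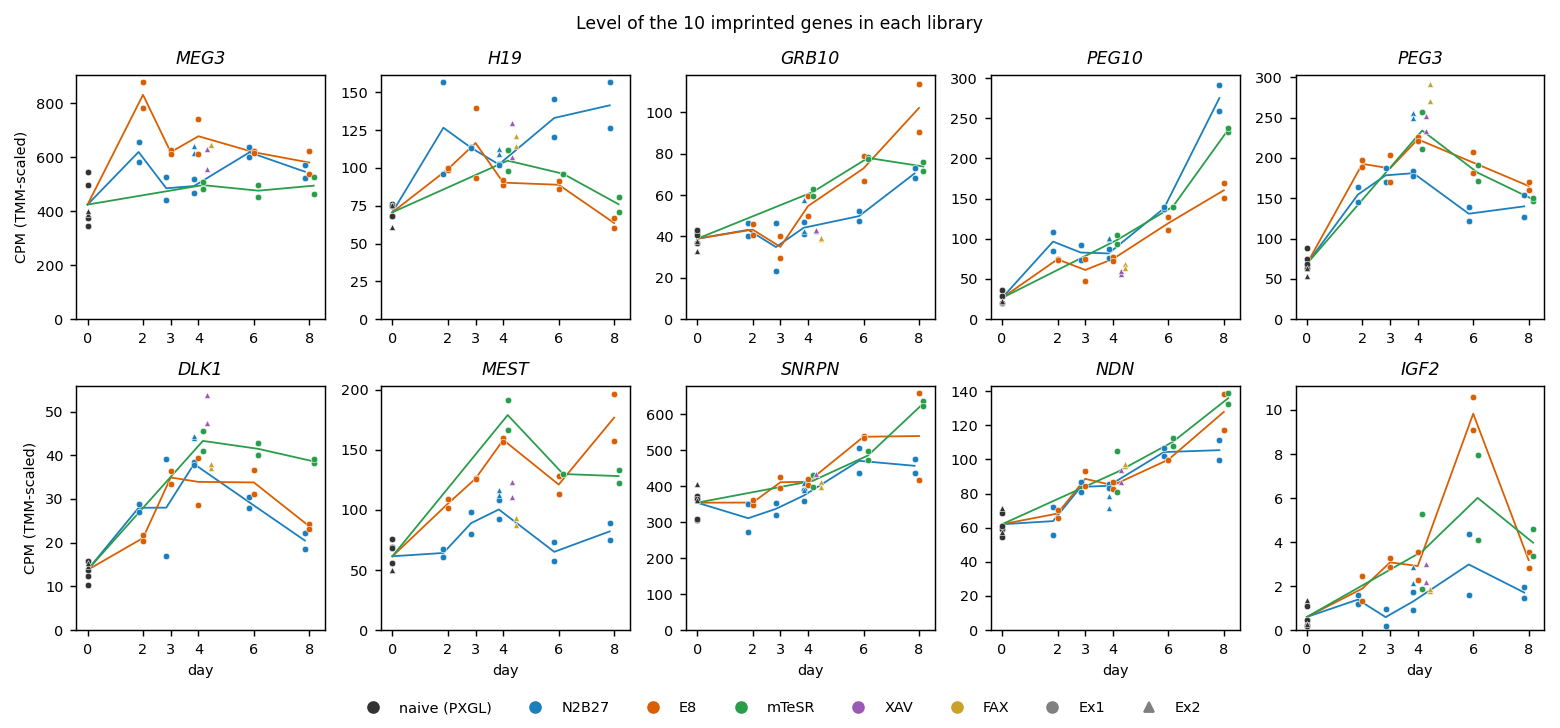
Level of each imprinted gene (CPM, linear axis from 0) against the day, with 1 point per library, circles for Ex1, triangles for Ex2, colours for media, and lines through the Ex1 means of N2B27, E8 and mTeSR that start at the mean of the 6 naive libraries. PEG10 stood at 151 CPM or more in each library of day 8, and H19 separated into 157 and 126 CPM in N2B27 and 60.3 and 66.9 CPM in E8.

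The media were compared with each other at the same day within an experiment, to ask whether they led to different levels, and 4 of 140 pairs of gene and comparison were called. E8 differed from N2B27 in 0, 1, 0, 1 and 2 of the 10 genes at days 2, 3, 4, 6 and 8, beside 4.54%, 1.68%, 2.49%, 5.28% and 7.29% of all genes called either way. No gene of the 10 was called for mTeSR against N2B27 at days 4, 6 and 8 (1.58%, 2.62% and 3.81% of all genes), for mTeSR against E8 (0.0840%, 1.10% and 5.31%), or at day 4 for XAV against N2B27 (0.570%), FAX against N2B27 (0.336%) and FAX against XAV (0.0120%). Without the fold threshold 30 of the 140 pairs had an adjusted p under 0.05, beside 7.62% of the pairs over all genes, and MEST accounted for 9 of the 30, MEG3 for 5 and NDN for none. MEST in mTeSR against N2B27 at day 6 lay just under the fold threshold (0.996, adjusted p = 8.9e-06, edgeR) and was called in 30 of 45 alternatives, among them without N2B27 day 6 replicate 1 (1.18).

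At day 8 MEST was 2.15-fold higher in E8 than in N2B27 (1.10 ± 0.13 on the log2 scale, adjusted p = 1.5e-07, edgeR), with 196 and 157 CPM against 74.9 and 89.5 CPM. H19 went the other way and was 2.22-fold lower in E8 (-1.15 ± 0.17, adjusted p = 7.8e-06), with 60.3 and 66.9 CPM against 157 and 126 CPM. The libraries of E8 and N2B27 did not overlap for either gene, which adds little to calls made on the same 2 libraries per medium. Over all genes the E8 pair of day 8 lay further apart than the N2B27 pair. Its chi-square per degree of freedom between replicates, a measure of spread beyond counting error, was 8.165 against 2.485. Both calls lay close to the fold threshold: without N2B27 replicate 1 the difference was -0.994 for H19 (adjusted p = 0.0012) and 0.98 for MEST (adjusted p = 1.4e-04), and without E8 replicate 1 it was 0.92 for MEST, all by edgeR. In mTeSR both genes lay between those media, MEST at 134 and 123 CPM (0.64 ± 0.13 against N2B27, adjusted p = 0.0014) and H19 at 71.1 and 80.9 CPM (-0.89 ± 0.17, adjusted p = 5.4e-04).

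IGF2 was called higher in E8 than in N2B27 at day 3 (2.42 ± 0.72, adjusted p = 0.039, edgeR), on 12 and 16 counts against 4 and 1, and at day 6 (1.72 ± 0.46, adjusted p = 0.0092). The day 3 call was lost with only its 4 libraries in the fit (adjusted p = 0.40), DESeq2 gave it no adjusted p, and it was lost without any single library of the 4, with adjusted p from 0.072 to 0.24 and a difference of 1.62 without N2B27 replicate 2 and 3.79 without N2B27 replicate 1. The day 6 call was lost without E8 replicate 1 (adjusted p = 0.071) and without N2B27 replicate 2 (1.16, adjusted p = 0.19), by edgeR.

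The other 8 genes were not called between E8 and N2B27 at day 8, and none of the 10 between mTeSR and N2B27. IGF2 was at 1.22 ± 0.57 in mTeSR against N2B27 (adjusted p = 0.18, edgeR), past the fold threshold but not that on p. PEG10 was at -0.78 ± 0.14 in E8 against N2B27 (adjusted p = 1.9e-04, edgeR) and DLK1 at 0.91 ± 0.22 in mTeSR against N2B27 (adjusted p = 0.005). Without N2B27 replicate 2, DLK1 passed the threshold at 1.04, as did H19 in mTeSR at -1.05. For MEG3 the difference of E8 from N2B27 was 0.09, with a 95% interval of -0.12 to 0.29, and for SNRPN it was 0.24, with an interval of -0.01 to 0.49. Without E8 replicate 2 both values changed sign, to -0.00390 for MEG3 and -0.11 for SNRPN, and PEG3 in mTeSR against N2B27 did so without N2B27 replicate 1 (-0.0569, against 0.08 ± 0.12 with it).

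Markers of differentiated lineages moved with the same comparison of media. At day 8 the endoderm markers summed to 19.9 to 26.5 CPM in E8 and 84.2 to 87.4 CPM in mTeSR (TTR at 0), and 7 mesoderm markers to 222 to 294 CPM in N2B27, 35.5 to 38.7 CPM in E8 (MESP1 and FOXF1 at 0) and 148 to 193 CPM in mTeSR. In E8 against N2B27, 6 of 6 tested endoderm markers, 4 of 4 mesoderm markers and 5 of 8 trophectoderm markers were called lower. The 9 trophectoderm markers summed to 376 to 458 CPM in N2B27, 415 to 438 CPM in E8 and 432 to 477 CPM in mTeSR (KRT7 at 0), against 329 to 479 CPM in naive cells (HAND1 at 0). The fibroblast markers summed to 108 to 113 CPM in E8 (COL3A1, FAP and PRRX1 at 0) and 146 to 161 CPM in mTeSR (LUM, DCN and FAP at 0), and 4 amnion markers to 8.64 to 12.95 CPM in N2B27 (VTCN1 at 0), 14.5 to 15.7 CPM in E8 and 7.25 to 10.3 CPM in mTeSR. The part of such cells in the differences of H19, MEST and PEG10 was not tested.

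**Figure D3:**
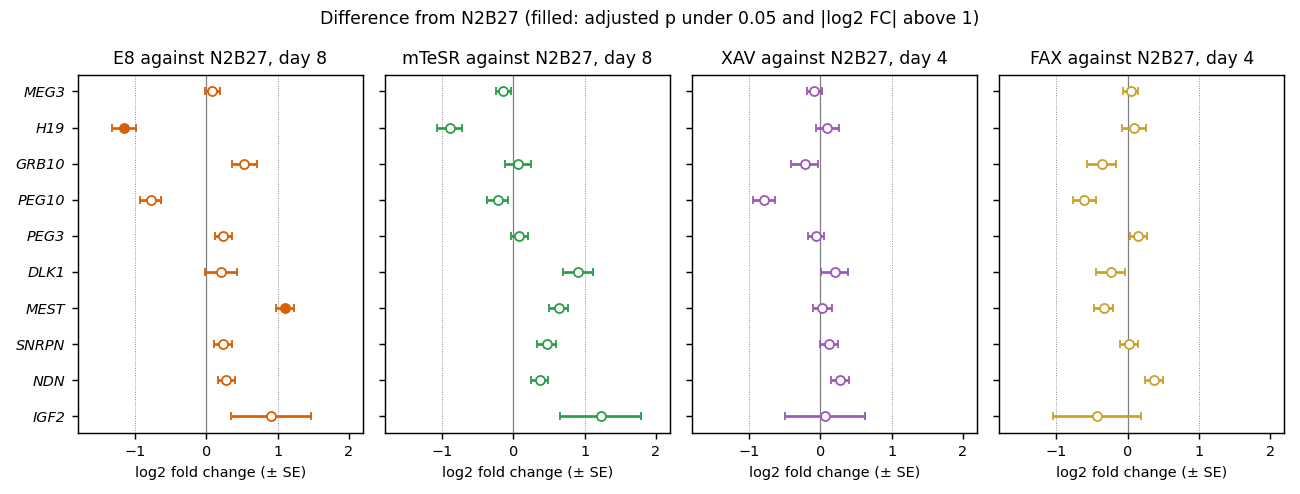
Difference of each imprinted gene from N2B27 at the same day and in the same experiment (log2 fold change, points, with bars of 1 SE), for E8 and mTeSR at day 8 and XAV and FAX at day 4, where filled points are called and dotted lines mark the fold threshold. H19 at -1.15 and MEST at 1.10 in E8 are the filled points, and PEG10 lies at -0.79 in XAV.

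Whether the difference between E8 and N2B27 changed with the day was tested by an interaction over days 2, 3, 4, 6 and 8. Among the 10 genes the test passed for H19 (adjusted p = 0.0067, edgeR), and the adjusted p of the other 9 lay between 0.078 (MEG3) and 0.97 (SNRPN), beside 11.0% of all genes with an adjusted p under 0.05. Over days 2, 3, 4, 6 and 8 the H19 difference was -0.35 ± 0.17, 0.04 ± 0.17, -0.18 ± 0.17, -0.58 ± 0.17 and -1.15 ± 0.17. The H19 interaction missed the threshold without N2B27 day 8 replicate 1 (adjusted p = 0.058) and with only the libraries it compares in the fit (0.063). For MEST the difference was positive at all 5 days, from 0.51 ± 0.13 at day 3 to 1.10 ± 0.13 at day 8, with an interaction adjusted p of 0.14. Without 1 library the interaction also passed for DLK1 (N2B27 day 3 replicate 2, adjusted p = 0.0031), GRB10 and MEG3 (N2B27 day 3 replicate 1, 0.024 and 0.033), MEG3 and MEST (E8 day 8 replicate 2, 0.044 and 0.0495) and PEG10 (E8 day 3 replicate 1 or 2, 0.027 and 0.039), by edgeR.

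With tankyrase inhibited at day 4 in Ex2, PEG10 was the gene furthest from N2B27. Its libraries held 99.96 and 101 CPM in N2B27, 56.3 and 59.9 CPM in XAV and 69.03 and 63.2 CPM in FAX, with N2B27 above all others. The difference from N2B27 was -0.79 ± 0.16 in XAV (adjusted p = 0.0035, edgeR) and -0.61 ± 0.16 in FAX (adjusted p = 0.0596). Both differences were under the fold threshold, and that of FAX also missed the threshold on p. The lowest adjusted p of the other 9 genes in these comparisons was 0.269, for NDN in FAX.

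Steps between successive days within a medium gave 1 call in 100 pairs, IGF2 from day 4 to day 6 in E8 (1.74 ± 0.46, adjusted p = 0.016, edgeR), where 2.51% of all genes were called. In the 9 other steps, with no call among the 10 genes, the share of all genes was 3.18%, 1.09%, 3.89% and 1.43% in N2B27, 7.56%, 0.810% and 0.804% in E8, and 2.92% and 0.978% in mTeSR. The IGF2 call was lost without any of its 4 libraries, E8 day 4 replicate 1 (0.23) or 2 (0.063) and E8 day 6 replicate 1 (0.15) or 2 (0.068), each an adjusted p by edgeR. PEG10 had an adjusted p under 0.05 in 5 of its 10 steps, all upwards, the largest from day 6 to day 8 in N2B27 (1.00 ± 0.14, adjusted p = 3.7e-05), which lay just under the fold threshold before rounding and was called in 31 of 45 alternatives. IGF2 from day 6 to day 8 in E8 was at -1.61 ± 0.46 (adjusted p = 0.052, edgeR), on 19 and 12 counts against 44 and 40, and was called lower in 15 of 45 alternatives. DLK1 from day 3 to day 4 in N2B27 was at 0.42 ± 0.20 (adjusted p = 0.28, edgeR) and was called without N2B27 day 3 replicate 2 (1.15, adjusted p = 6.0e-04). PEG3 was lower on the later day with folds under the threshold, -0.47 ± 0.12 from day 4 to day 6 in N2B27 (adjusted p = 0.0075) and -0.36 ± 0.12 in mTeSR (adjusted p = 0.048). Without the fold threshold 18 of the 100 pairs had an adjusted p under 0.05, 12 higher and 6 lower, beside 7.4% of the pairs over all genes. MEST had 2 such steps higher and 2 lower, with its lowest change at -0.62 from day 4 to day 6 in N2B27. MEG3 had 1 higher and 2 lower.

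In naive cells none of the 10 genes was called between Geltrex and serum coating in Ex1, where 0.0480% of all genes were. MEG3 held 343 and 373 CPM on Geltrex and 545 and 496 CPM on serum, a difference of -0.54 ± 0.11 with an adjusted p of 0.0319 (edgeR) under the fold threshold, and Ex2 naive cells on Geltrex held 389.6 and 399 CPM. For the other 9 genes the adjusted p was 0.282 or more. Between the experiments none of the 10 was called in naive cells on Geltrex (4.67% of all genes), in N2B27 at day 4 (1.01%) or in the change from naive cells to N2B27 at day 4 (6.48%). PEG3 was at 0.48 ± 0.12 in N2B27 at day 4 of Ex2 against Ex1 (adjusted p = 0.015, edgeR), and its change from naive cells on Geltrex to N2B27 at day 4 was larger in Ex2 by 0.66 ± 0.18 (adjusted p = 0.014), both under the fold threshold.

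The genes with the highest correlation over the 19 group means of log2 CPM were looked up among tested genes whose highest group mean was at least 10 CPM. For PEG10 they were FBN2, EOGT and CELF2 (Pearson's r of 0.97, 0.97 and 0.96), for NDN DPYSL4, PXDN and GCA (0.95 each), for PEG3 ERRFI1, KLF10 and CRISPLD2 (0.95, 0.94 and 0.94) and for MEST MEX3C, ATP8A2 and HMGN3 (each 0.92). The closest partners of H19 had the lowest r of the 10 genes, ZC3HAV1, EVX1 and ITPRIPL2 (0.87, 0.86 and 0.84).

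The 10 genes lie in 7 imprinted clusters, whose other genes were examined at day 8 with further imprinted genes. Of 58 listed, 56 were in the table and 35 were tested. Against naive cells 9 of the 35 were called higher and 3 lower in N2B27, 11 and 3 in E8, and 10 and 4 in mTeSR, beside 23.9%, 27.5% and 25.2% of all genes called either way. Their median log2 fold change was 0.27, 0.69 and 0.30 (0.24, 0.66 and 0.30 with the 2 genes at the counting floor in naive cells set to their lower bound). Within the clusters 9 of 18 tested genes were called in at least 1 medium, 7 of them in all 3 (DIO3, SGCE, PPP1R9A, TFPI2, MAGEL2, ATP10A and SLC22A18), where 36.3% of all genes tested were called in at least 1 medium and 16.3% in all 3. With the naive libraries of Ex1 alone, 3 of the 7 were not called in N2B27 by edgeR, MAGEL2 (0.84, adjusted p = 0.042), ATP10A (adjusted p = 0.12) and SLC22A18 (-0.69, adjusted p = 0.056). In that fit SLC22A18 was not called in mTeSR (-0.79, adjusted p = 0.044), while COPG2 in E8 (1.17) and OSBPL5 in mTeSR (1.37) were called.

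In the PEG10 cluster on 7q21 the 3 other tested genes, SGCE (epsilon-sarcoglycan), PPP1R9A (the actin-binding neurabin) and TFPI2 (a protease inhibitor), were called higher in all 3 media. PPP1R9A held 0.340 to 2.16 CPM in naive cells and 12.3 and 13.1 CPM in N2B27, 19.6 and 22.5 in E8 and 21.4 and 22.6 in mTeSR. TFPI2 held 2.04 to 14.3 CPM in naive cells, lowest in Ex2 at 2.04 and 3.03, and 51.3 to 79.8 CPM at day 8. SGCE held 0.551 to 3.26 CPM in naive cells and 3.51 to 7.02 CPM at day 8. On 14q32, DIO3, a paternally expressed enzyme that inactivates thyroid hormone, had at most 2 counts in any naive library. At day 8 it held 36.00 and 34.7 CPM in N2B27, 3.17 and 4.46 CPM in E8 and 8.11 and 8.92 CPM in mTeSR, which is at least 34.7-fold, 3.74-fold and 8.35-fold higher than 3 counts in the naive library where they weigh most (1.02 CPM). E8 was below N2B27 (-3.22 ± 0.33, adjusted p = 2.5e-08, edgeR), the order of the endoderm marker sums, whose part was not tested. The maternally expressed RNAs MEG8 and MEG9 of that cluster were not called.

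On 15q11, MAGEL2, a paternally expressed MAGE family gene near NDN, was called higher in all 3 media, from 0.681 to 11.96 CPM in naive cells (lowest in Ex2, 0.681 and 4.14, on 2 and 15 counts) to 13.4 and 17.6 CPM in N2B27, 47.97 and 32.8 in E8 and 18.7 and 37.4 in mTeSR. SNHG14, the long host transcript of small nucleolar RNAs downstream of SNRPN, held 385 to 485 CPM in naive cells and 645 and 664 CPM in N2B27, 1059 and 914 in E8 and 933 and 991 in mTeSR, and was called in the latter 2 media. ATP10A was called in all 3 media on 3 to 8 counts per library, against 0 to 2 in naive cells. Relative to 3 counts in the naive library where they weigh most, ATP10A was at -0.39, 0.64 and 0.57 on the log2 scale in N2B27, E8 and mTeSR, under the fold threshold in each. UBE3A and SNURF were not called. On 11p15, PHLDA2, a maternally expressed gene that limits growth of the placenta, fell from 122 to 155 CPM in naive cells to 42.7 and 63.8 CPM in E8 and 45.7 and 49.4 CPM in mTeSR, with 72.9 and 79.4 CPM in N2B27 under the fold threshold. SLC22A18 fell in all 3 media, with 4.85 to 17.1 CPM in naive cells (highest in Ex2, 15.99 and 17.1) and 2.43 to 4.14 CPM at day 8. CDKN1C, an inhibitor of the cell cycle, KCNQ1OT1 and OSBPL5 were not called, nor were COPG2 near MEST and ZIM2 near PEG3.

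**Figure D4:**
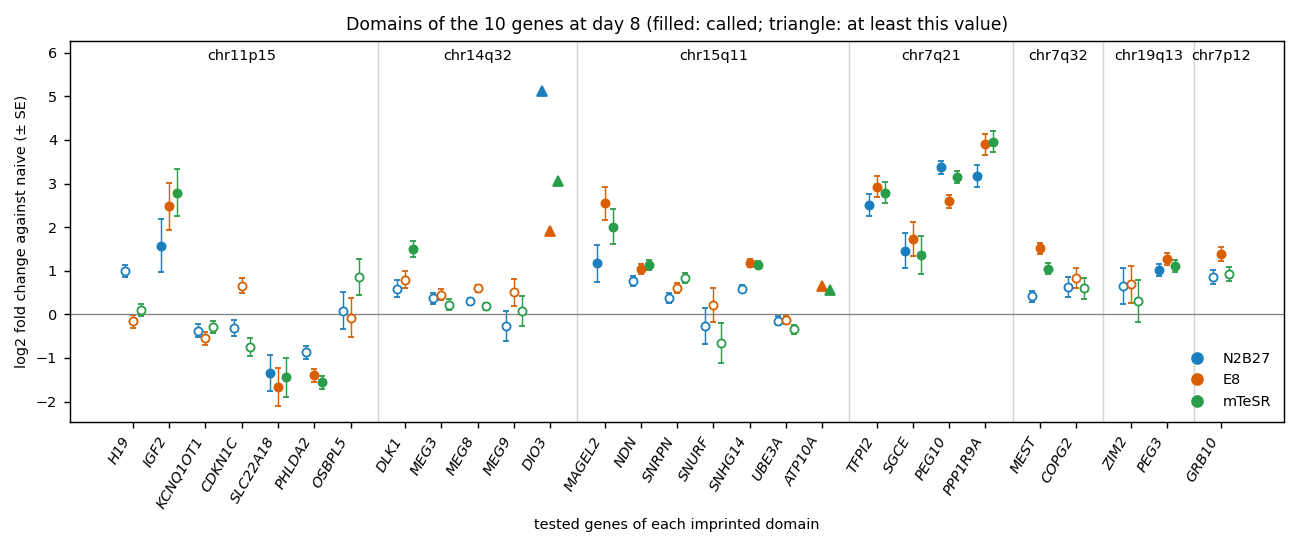
Log2 fold change against naive cells at day 8 of every tested imprinted gene in the 7 clusters (bars 1 SE, filled points called, triangles lower bounds for genes at or under 3 counts in every naive library, ATP10A in N2B27 not drawn because its bound is below 0). The 4 genes of 7q21 lie above 1 in all 3 media, and PHLDA2 and SLC22A18 on 11p15 lie below 0.

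Outside the clusters 9 of 17 tested imprinted genes were called in at least 1 medium, beside the same 36.3% of all genes, and the 5 with the largest change were NNAT, PLAGL1, DIRAS3, IGF2R and NLRP2. NNAT, the paternally expressed neuronatin, rose from 5.29 to 12.9 CPM in naive cells to 232 and 209 CPM in N2B27, 277 and 353 in E8 and 272 and 240.4 in mTeSR (5.19 ± 0.15 in E8). It shares 85 exonic bases with BLCAP on the opposite strand. IGF2R, the receptor that clears IGF2 from the cell surface, rose in all 3 media, with 27.3 to 52.1 CPM in naive cells and 81.9 to 140.3 CPM at day 8. NLRP2 fell in all 3 media, with 984 to 1215 CPM in naive cells and 323 to 526 CPM at day 8. DIRAS3, a small GTPase, fell in N2B27 to 1.32 and 1.44 CPM from 1.70 to 7.06 CPM, of which the Ex2 pair held 1.70 and 2.21. PLAGL1, a zinc finger protein, rose in N2B27 to 3.51 and 6.84 CPM from 0 to 2.65 CPM.

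Of the genes listed as keeping or changing imprint marks, 19 were tested at day 8. In N2B27 1 was called higher and 4 lower, in E8 2 and 5, and in mTeSR 2 and 4, beside 23.9%, 27.5% and 25.2% of all genes called either way. DNMT3B, which adds new methylation, rose from 194 to 329.5 CPM to 561 and 618 CPM in N2B27, 919 and 918 in E8 and 935 and 1036 in mTeSR. DNMT3L, a cofactor without enzyme activity, fell in all 3 media, with 258 to 364 CPM in naive cells and 30.03 to 54.7 CPM at day 8. UHRF1, which brings DNMT1 to newly copied DNA, fell in all 3 media, with 54.04 to 134 CPM in naive cells and 30.03 to 49.4 CPM at day 8, and with the Ex2 naive libraries nearest to day 8 at 55.1 and 54.04. TET2, which oxidises methylated cytosine, fell in all 3 media, with 8.55 to 56.9 CPM in naive cells and 4.46 to 8.46 CPM at day 8, again with the Ex2 naive libraries lowest at 12.6 and 8.55. NLRP7, a maternal-effect gene, fell in all 3 media, with 2069 to 3329.7 CPM in naive cells and 296 to 870.3 CPM at day 8.

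ZFP57, a zinc finger protein that keeps methylation at imprinted regions, rose in E8 to 41.8 and 51.6 CPM from 15.9 to 23.9 CPM (1.24 ± 0.14) and was under the fold threshold in N2B27 (0.82 ± 0.14) and mTeSR (0.92 ± 0.15). SMCHD1, a chromatin protein of silenced clusters, fell in E8 (-1.43 ± 0.17), and ZNF202 rose in mTeSR (1.10 ± 0.19). DNMT1, which copies methylation at replication, was at 0.40 to 0.45 and DPPA3, which protects methylation in the fertilised egg, at -0.23 to -0.07, and neither was called.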

How the data were processed

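RNA of 38 Shef6 libraries was sequenced with QuantSeq, a 3′ tag protocol. The authors deposited 1 table of estimated counts per gene (whole numbers, not normalised), made with the nf-core rnaseq workflow, and the submitters' processing notes name FastQC 0.11.9, STAR 2.7.10a, Salmon 1.9.0, DESeq2 and the hg38 build. The strand setting is not given in the sources used here. The 16674 genes that passed filterByExpr held 99.65% of the counts. TMM scaling and the quasi-likelihood F-test of edgeR 4.0.16 (R 4.3.3) were used. In a fit of 16 combinations of medium and day, libraries of both experiments were joined (6 naive and 4 of N2B27 at day 4), which gave 15 comparisons with naive cells. A fit with 19 groups of 2 gave 14 comparisons of media, 10 of successive days, 4 of coating and experiment and the interaction of E8 and N2B27 with day. P-values were adjusted over all genes in each comparison, and calls needed an adjusted p under 0.05 and an absolute log2 fold change above 1. Depth was 3038046 to 5612354 counts per library, and the common dispersion of 0.01 in the 19 groups is a coefficient of variation of 10%. That value is pooled, and replicate pairs differed in spread over all genes. The chi-square per degree of freedom between replicates was 10.23 in E8 at day 3 and 8.358 in N2B27 at day 3. It was 8.165 in E8 at day 8, 8.018 in N2B27 at day 2 and between 1.345 and 4.007 in the other groups. The floor was 3 counts per library and covers counting error only, while the 95% intervals of log2 fold changes (1.96 SE of the fit) include the spread between libraries. The script was tested on simulated data.

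The 10 genes and the lists of other imprinted genes, regulators and markers were chosen with earlier results of these data known. Named were the 10 genes, the tested genes of their clusters, the 5 other imprinted genes with the largest change among those called at day 8, the regulators called at day 8, and DPPA3, ZFP57 and DNMT1. Positions and overlaps are those of GENCODE 44 (GRCh38), by symbol, and transcript start windows are from RefSeq. Alternatives were RLE scaling, library totals, a filter of a count above 10 in at least 2 libraries, no filter, DESeq2 1.42.0, fits to the compared libraries alone, other naive libraries, a replicate block and leaving out single libraries. Leaving out libraries of the E8 and N2B27 course was chosen after seeing the data.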

Additional observations from a re-analysis of the deposited data

Results flagged for a closer look

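The course of H19 over days 2 to 8 differed between E8 and N2B27 by the interaction test (adjusted p = 0.00672, edgeR). The H19 libraries of day 8 held 157 and 126 CPM in N2B27 and 60.3 and 66.9 CPM in E8. None of 20 further checks for a library far from the rest of its group found one among the groups of 4 or 6 libraries.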

How the results depend on the processing

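Over 729 alternative values of the 50 day 8 changes of single genes, 691 kept their direction and side of the thresholds, 22 fell under a threshold, 12 passed one and 4 changed sign. The sign changes were uncalled values: MEG3 in mTeSR against naive cells on serum coating only (-0.074), MEG3 and SNRPN in E8 against N2B27 without E8 day 8 replicate 2 (-0.0039 and -0.11, with ranges up to 0.17 and 0.51 without other libraries) and PEG3 in mTeSR against N2B27 without N2B27 day 8 replicate 1 (-0.057, with a range up to 0.23). The 63 calls against naive cells became 54 to 66 under the other settings and 58 to 67 without single libraries. The 4 calls between media became 3 to 5 under the other settings and 2 to 6 without single libraries, with 2 without N2B27 day 8 replicate 1. The 1 call between days became 2 with RLE scaling, library totals, the study's filter and the compared libraries alone, 3 with no filter, and 0 to 3 without single libraries (0 without E8 day 6 replicate 1). In each of these settings that kept all libraries, the call added was PEG10 from day 6 to day 8 in N2B27, joined by IGF2 from day 6 to day 8 in E8 with no filter. With DESeq2, IGF2 from day 4 to day 6 in E8 was not called (adjusted p = 0.064) and PEG10 from day 6 to day 8 in N2B27 was, and the IGF2 adjusted p in E8 against N2B27 at day 3 was NA. The 1 gene passing the course interaction became 2 with DESeq2 (MEG3 besides H19), 0 in the compared libraries alone (H19 adjusted p = 0.063) and 0 to 3 without single libraries. No gene of the 10 was called between coatings or experiments under any setting run (3 of 40 pairs had an adjusted p under 0.05, beside 7.74% of the pairs over all genes). The cause of these changes was not tested. A library left alone in its group was assumed to vary like the other groups.

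With library totals the median over all genes became -0.149 on the log2 scale for E8 at day 2 against naive cells, with 2003 calls higher and 2368 lower in place of 2320 and 1787, to -0.148 against N2B27 (374 higher and 486 lower in place of 471 and 286) and to 0.167 from day 2 to day 3 in E8 (987 and 406 in place of 720 and 540). They also moved the split of calls from day 3 to day 4 in N2B27 (181 higher and 34 lower in place of 133 and 48) and in N2B27 at day 4 of Ex2 against Ex1 (53 and 138 in place of 65 and 103). With the replicate number as a block the calls were 64 against naive cells, 4 between media and 2 between days (IGF2 from day 6 to day 8 in E8 was added, adjusted p = 0.038). The numbers did not pair the libraries: deviations of same-numbered libraries correlated from -0.539 to 0.454 over 171 pairs of groups, with a median of 0.00292. Among the 10 genes, depth limits IGF2 most, at 1 to 5 counts per naive library.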
